A study of Mus musculus with 19 samples.

Results

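The genes described here are 8 parts of fibroblast growth factor (FGF) signaling in the mouse liver. They comprise the ligands Fgf1 and Fgf21, the receptors Fgfr1, Fgfr2, Fgfr3 and Fgfr4, the co-receptor Klb (beta-Klotho) and the adaptor Frs2. They were picked by gene symbol and not by their values, as 8 of 51826 gene entries in the table. RNA from flash frozen liver of 19 female Balb/c mice was sequenced to ask how the liver changes over a reproductive cycle. There were 7 nulliparous mice, 6 mice at day 10 of lactation and 6 mice at day 6 of involution, counted from weaning. Each mouse was a separate animal at 12 weeks of age, and the labels name no transgene, deletion or drug in any group. The study's methods give Charles River Laboratories and The Jackson Laboratory as the sources of Balb/c mice, and the labels do not say which mouse came from which.

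FGFs signal through receptor tyrosine kinases, and the endocrine FGFs need a Klotho protein beside the receptor because they bind heparan sulfate weakly. In hepatocytes, beta-Klotho together with FGFR4 receives FGF15 from the ileum, a signal known for repressing Cyp7a1 and with it bile acid synthesis. FGF21 is a hormone that the liver itself secretes, classically in fasting, whereas FGF1 is a heparin-binding growth factor that can bind all FGF receptors. Inside the cell, FRS2 docks on the activated receptor and couples it to GRB2, SHP2 and the RAS-MAPK cascade.

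The values are TPM, which scale RSEM's length-corrected estimate of each gene so that all genes of a mouse add up to 1000000, so levels of different genes can be set side by side. TPM keeps no record of read depth, and the spread between mice is the only measure of precision. Genes at 1 TPM or more numbered 11209 to 11797 per mouse, and the 10 most abundant genes took 25.7% to 28.0% of the total in the nulliparous group, 29.0% to 31.2% in lactation and 26.7% to 28.8% in involution. The animals are numbered 1 to 240. Of the nulliparous and the lactating mice, 3 each have numbers under 200, while all 6 involution mice are numbered 200 or above, so for involution the stage and the range of animal number cannot be told apart against lower-numbered mice. Neither the labels nor the methods name the range as a batch. Stages were compared with limma-trend on log2(TPM + 1) over 16230 genes, those averaging 0.1 TPM or more over the 19 mice, which include all 8 genes described, and a gene was said to rise or fall at a Benjamini-Hochberg adjusted p under 0.05. Fold changes on this scale understate changes of genes at low TPM.

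Fgf1 had the highest TPM of the 8 genes and Fgfr1 the lowest in each of the 3 stages. In nulliparous mice Fgf1 stood at 31.8 ± 2.97 TPM (SD, n = 7), apart from Fgfr4 at 17.6 ± 1.76, and the next genes in order, Fgfr2 at 13.1 ± 3.05, Klb at 12.7 ± 1.99 and Fgfr3 at 10.6 ± 1.88, overlapped with their neighbors from mouse to mouse. Fgf21 at 3.60 ± 1.69 and Frs2 at 3.39 ± 0.270 also overlapped, and Fgfr1 came last at 0.901 ± 0.214 TPM. In lactation Klb and Fgfr3 moved ahead of Fgfr2 in this order, and in involution Fgfr2 was again ahead of both. The ranges of Fgfr4, Klb, Fgfr3 and Fgfr2 overlapped between neighbors in lactation and in involution as well. Within single lactating mice, each of these genes was above the next in the order in 5 of 6. In involution Fgfr4 was above Fgfr2 and Klb above Fgfr3 in 6 of 6 mice, and Fgfr2 was above Klb in 4 of 6. Over all 19 mice Fgf21 was the most variable of the 8 genes, with a coefficient of variation of 53.6%, against 10.2% for Fgfr4. These values pool the stages, and within lactation Fgfr1 (42.2%) and Fgf1 (26.3%) varied more than Fgf21 (24.7%).

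The figure by mouse gives every value behind these levels.

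**Figure D1:**
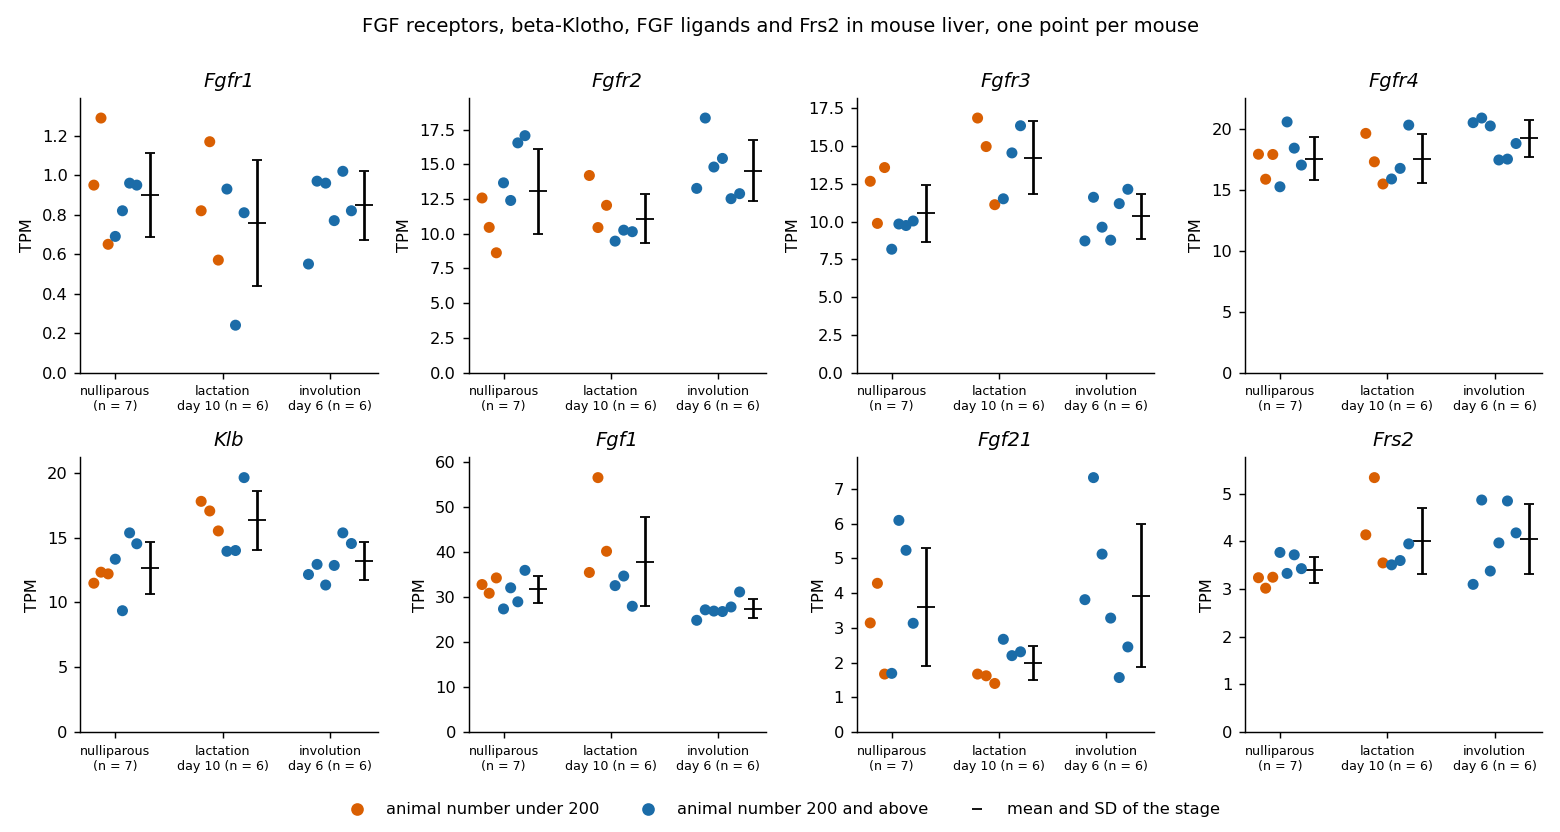
TPM of each of the 8 genes (vertical axes, each from 0) in each mouse at the 3 stages, with orange points for animal numbers under 200, blue points for 200 and above, and a black bar for the mean and SD of the stage. Fgfr3 and Klb sit highest in lactation, Fgf21 is between 1.40 and 2.67 TPM in every lactating mouse and spreads widely at the other stages, and Fgfr4 stays between 15.24 and 20.88 TPM.

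The DNA upstream of 3 of these genes is shown because Klb and Fgfr3 are the genes that rose in lactation and Fgf21 is the hormone that the liver makes itself. Windows of 250 bases before RefSeq start sites on GRCm38.p6 were used for 6 of the 8 genes. These windows were searched on both strands for 7 motifs: the TATA box TATAAA, the E-box CACGTG, the amino acid response element core TGATGCAA, the nuclear receptor half-site AGGTCA, the GC box GGGCGG, the CCAAT box CCAAT and the STAT site TTCNNNGAA. The stretches below run 5′ to 3′ on the strand of the gene, stop before the first transcribed base in GENCODE M21, and have motif matches in capitals.

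Fgf21 (chr7:45615491-45615740, minus strand): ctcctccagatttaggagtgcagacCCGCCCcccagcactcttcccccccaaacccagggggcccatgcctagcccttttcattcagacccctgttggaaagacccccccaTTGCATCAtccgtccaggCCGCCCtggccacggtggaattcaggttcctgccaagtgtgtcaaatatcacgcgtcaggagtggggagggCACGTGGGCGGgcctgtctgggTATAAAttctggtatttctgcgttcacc

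Fgfr3 (chr5:33721474-33721673, plus strand): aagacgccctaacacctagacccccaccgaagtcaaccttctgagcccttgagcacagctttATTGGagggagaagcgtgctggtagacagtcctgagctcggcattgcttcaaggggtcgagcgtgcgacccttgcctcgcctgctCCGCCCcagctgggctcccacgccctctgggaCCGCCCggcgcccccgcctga

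Klb (chr5:65348161-65348313, plus strand): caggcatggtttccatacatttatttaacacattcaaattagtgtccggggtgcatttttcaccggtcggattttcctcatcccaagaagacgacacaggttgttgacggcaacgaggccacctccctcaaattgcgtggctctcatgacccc

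The Fgf21 window held a TATA box beginning 28 bases before the start, an E-box beginning 50 bases before it, and the reverse complement of TGATGCAA beginning 139 bases before it. The last of these motifs was in 0.791% of the 32851 windows of the same length in the RefSeq table, against 12.4% with TATAAA and 6.02% with CACGTG. The window also held 3 GC boxes, of which 1 overlaps the E-box, and GGGCGG was in 32.7% of windows. The Fgfr3 window printed in part held 3 GC boxes, of which 2 are in the stretch printed, and a reversed CCAAT box, a motif found in 33.8% of windows. A second Fgfr3 window, before a start further downstream (chr5:33722056-33722305), held 2 GC boxes and no other of the 7 motifs. No motif matched in the Klb window, which says only that these letters are not in it. AGGTCA was in 14.0% of windows and TTCNNNGAA in 7.02%, and neither was in a window of the 3 genes. These matches describe the letters and are not binding sites.

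Klb and Fgfr3 rose in lactation, by 29.0% and 34.7% in mean TPM, while Fgfr4, the receptor that pairs with beta-Klotho for bile acid control, had a mean of 17.6 TPM at both stages. Of the 8 genes, 2 rose from nulliparous to lactating mice, where 2.72% of all 16230 genes tested rose, and 0 fell, where 6.49% of all genes fell and 9.21% changed in either direction. At an unadjusted limma p under 0.05, 1 of the 8, Fgf21, was lower and Klb and Fgfr3 were the 2 that were higher, where 15.8% of all genes were lower, 7.30% higher and 23.1% either. None of the 8 passed the rule of the study's methods, which also asks for a log2 fold change of 1 or more in size and which 0.746% of all genes passed. In bulk liver, fewer cells of a type and less RNA per cell cannot be told apart.

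Klb, on chromosome 5 (GRCm38, 65348314 to 65384007), encodes the co-receptor. Its TPM ran from 9.36 to 15.36 with a median of 12.33 in nulliparous mice and from 13.94 to 19.62 with a median of 16.28 in lactating mice. The ranges overlapped, but 4 of 6 lactating mice lay above every nulliparous mouse and all 6 lay above the nulliparous mean. The log2 fold change was 0.35 (SE 0.10, limma adjusted p = 0.0421), and a two-sided exact permutation test of the means gave an unadjusted p of 0.0105. The difference ran the same way within each range of animal number. Among mice numbered under 200 it was 0.45 (SE 0.15, limma adjusted p = 0.0740), and among those numbered 200 and above it was 0.26 (SE 0.14, limma adjusted p = 0.329).

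Fgfr3, also on chromosome 5 (33721674 to 33737068), encodes a receptor that is best known from growing cartilage. It ran from 8.17 to 13.58 TPM with a median of 9.88 in nulliparous mice and from 11.12 to 16.86 with a median of 14.76 in lactating mice. Again 4 of 6 lactating mice lay above all 7 nulliparous mice, and the lowest lactating mice overlapped with the highest nulliparous ones. The log2 fold change was 0.40 (SE 0.12, limma adjusted p = 0.0425; exact permutation p = 0.0163). Among mice numbered 200 and above, the 3 lactating mice, at 11.51, 14.55 and 16.35 TPM, did not overlap with the 4 nulliparous mice, at 8.17, 9.74, 9.84 and 10.04 TPM, a lack of overlap that 19.8% of all genes tested had in this range. There the log2 fold change was 0.53 (SE 0.15, limma adjusted p = 0.0418), and under 200 it was 0.22 (SE 0.16, limma adjusted p = 0.421).

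The calls for Klb and Fgfr3 lay close to the threshold. When each of the 19 mice was left out in turn, Fgfr3 still rose in 10 of 19 fits and Klb in 8 of 19, with limma adjusted p values of 0.0197 to 0.0977 and of 0.0247 to 0.0963. Fgfr3 lost the call without LAC_36, LAC_102, LAC_213 or LAC_240 or without NUL_4, NUL_220, NUL_221, NUL_226 or NUL_227, where LAC, NUL and ID6 stand for the stages and the number is that of the animal. Klb lost it without LAC_36, LAC_102, LAC_133 or LAC_240, without NUL_1, NUL_4, NUL_13, NUL_220 or NUL_221, and without ID6_209 or ID6_218.

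The other receptors and both ligands did not pass this test in lactation. Fgfr4, on chromosome 13 (55152640 to 55168759), had medians of 17.89 and 17.02 TPM and a log2 fold change of -0.0016 (95% CI -0.16 to 0.16, limma adjusted p = 0.995). Fgfr2, on chromosome 7 (from 130162451, with its end at 133123350 in GENCODE M21 and at 130266808 in RefSeq), went from 13.1 ± 3.05 TPM (SD, n = 7) to 11.1 ± 1.74 (SD, n = 6), a log2 difference of -0.20 (95% CI -0.48 to 0.08, limma adjusted p = 0.409). Fgfr1, on chromosome 8 (25513654 to 25575718), was at most 1.29 TPM in any mouse, with a difference of -0.13 (95% CI -0.36 to 0.10, limma adjusted p = 0.529). Its lowest value, 0.24 TPM, was in a lactating mouse.

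Fgf21, on chromosome 7 (45613886 to 45615490), ran from 1.67 to 6.09 TPM with a median of 3.14 in nulliparous mice and from 1.40 to 2.67 with a median of 1.94 in lactating mice. All 6 lactating mice lay below the nulliparous mean, and 2 nulliparous mice at 1.67 and 1.69 TPM lay within the lactating range. Its mean was 45.1% lower, the largest change of the 8 genes in percent, with a log2 difference of -0.56 (SE 0.26, limma adjusted p = 0.197; exact permutation p = 0.0431, unadjusted). Fgf1, on chromosome 18, ran from 27.38 to 35.95 TPM in nulliparous mice and from 27.97 to 56.56 TPM in lactating mice, and mice LAC_102, at 56.56, and LAC_133, at 40.19, were the 2 above every nulliparous mouse. Its log2 difference of 0.22 (SE 0.11) had a limma adjusted p of 0.264 and was 0.10 without mouse LAC_102. Frs2, on chromosome 10 (117069427 to 117148534), was 3.39 ± 0.270 TPM (SD, n = 7) and 4.02 ± 0.696 (SD, n = 6), a log2 difference of 0.18 (SE 0.097, limma adjusted p = 0.277; exact permutation p = 0.0256, unadjusted). Mouse LAC_102 held the highest Frs2 value as well, and without it the difference was 0.11.

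From lactation to involution, Fgfr3 and Fgf1 fell. Of the 8 genes, 2 fell, where 4.73% of all genes tested fell, and 0 rose, where 18.1% rose and 22.8% changed in either direction. At an unadjusted limma p under 0.05, Fgfr2 and Fgf21 were the 2 of 8 that were higher, where 27.6% of all genes were higher, and Fgfr3, Fgf1 and Klb were lower, where 7.62% were lower and 35.2% differed in either direction. The 2 that were higher are close to that share. The rule that adds a log2 fold change of 1 or more in size was passed by 1.93% of all genes and by 0 of the 8. Counts of genes here lean on the scaling. With median-ratio scaling between mice in place of TPM as deposited, the median log2 change of all genes from lactation to involution moved by -0.10, from 0.099 to -0.0056. The share of called genes that rose went from 79.3% to 49.0% in this comparison, from 29.5% to 50.3% between nulliparous and lactating mice and from 79.1% to 43.5% between nulliparous and involution mice.

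Fgfr3 went back to 8.72 to 12.14 TPM, with a median of 10.41, in involution. All 6 involution mice lay below the lactating mean and 3 lay below every lactating mouse. The log2 fold change was -0.42 (SE 0.12, limma adjusted p = 0.0199; exact permutation p = 0.0195), and -0.57 under median-ratio scaling (limma adjusted p = 0.00184). Without LAC_36 the limma adjusted p was 0.0508.

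Fgf1 was 24.85 to 31.15 TPM, with a median of 27.04, in involution, against a median of 35.09 in lactation. All 6 involution mice were below the lactating mean, and 5 were below the lowest lactating mouse. The log2 fold change was -0.42 (SE 0.12, limma adjusted p = 0.0153; exact permutation p = 0.00433), and it passed in all 19 fits that left out 1 mouse. This gene also differed with animal number. Over nulliparous and lactating mice, those numbered 200 and above were lower by 0.26 on the log2 scale (SE 0.093, limma adjusted p = 0.0494), a difference that 27.0% of all genes tested passed and 1 of the 8 described here. This call was lost with no filter, and none of the 8 passed in 15 of the 19 fits that left out 1 mouse. Among mice numbered 200 and above, the fall of Fgf1 to involution was -0.20 (SE 0.096, limma adjusted p = 0.192; exact permutation p = 0.0476, where 6 mice against 3 cannot go below 0.0238). With range of animal number as a covariate neither Fgf1 (limma adjusted p = 0.0872) nor Fgfr3 (limma adjusted p = 0.0914) passed.

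Klb was 11.34 to 15.36 TPM, with a median of 12.89, in involution, and 4 of the 6 mice were below every lactating mouse. Its log2 difference from lactation was -0.28 (SE 0.11) with a limma adjusted p of 0.0652 (exact permutation p = 0.0216). Under median-ratio scaling Klb fell by 0.44 on the log2 scale (limma adjusted p = 0.00393). Fgfr2 was higher in all 6 involution mice, at 12.53 to 18.34 TPM, than the lactating mean of 11.1 TPM, with a log2 difference of 0.36 (SE 0.14, limma adjusted p = 0.0671; exact permutation p = 0.0152). It passed without LAC_36 (limma adjusted p = 0.0387) or without NUL_13 (limma adjusted p = 0.0382). Klb passed without LAC_200, LAC_213, ID6_230 or NUL_221, at limma adjusted p values from 0.0402 to 0.0475.

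Fgf21 ranged from 1.57 to 7.32 TPM in involution, with a median of 3.55, and 4 of 6 mice lay above every lactating mouse. The mean was 98.4% higher than in lactation, with a log2 difference of 0.64 (SE 0.27, limma adjusted p = 0.0918; exact permutation p = 0.0325, unadjusted). Without ID6_230, the lowest at 1.57 TPM, the limma adjusted p was 0.0337. Fgfr4 at 19.2 ± 1.53 TPM (SD, n = 6), Fgfr1 at 0.848 ± 0.175 and Frs2 at 4.06 ± 0.733 had log2 differences from lactation of 0.13, 0.09 and 0.01 (limma adjusted p = 0.269, 0.612 and 0.957).

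None of the 8 genes differed between involution and nulliparous mice by limma, where 4.36% of all genes passed, 3.44% rising and 0.912% falling, and where 0.253% also reached 1 in size on the log2 scale. At an unadjusted p under 0.05 the count was also 0 of 8 in limma, against 25.1% of all genes, 19.6% higher and 5.53% lower, and 1 of 8 in the exact permutation tests, against 22.4%. That gene was Fgf1, at 27.4 ± 2.07 TPM (SD, n = 6) in involution against 31.8 ± 2.97 (SD, n = 7), with an unadjusted exact p of 0.0128 and a log2 difference of -0.20 (95% CI -0.44 to 0.04, limma adjusted p = 0.276). For Fgfr3 the difference was -0.02 (95% CI -0.27 to 0.23) and for Klb it was 0.06 (95% CI -0.15 to 0.28). The widest interval belonged to Fgf21, at 0.08 (95% CI -0.45 to 0.62). The 3 comparisons share their mice, so a gene that is high in lactation enters the first and the second with opposite signs.

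**Figure D2:**
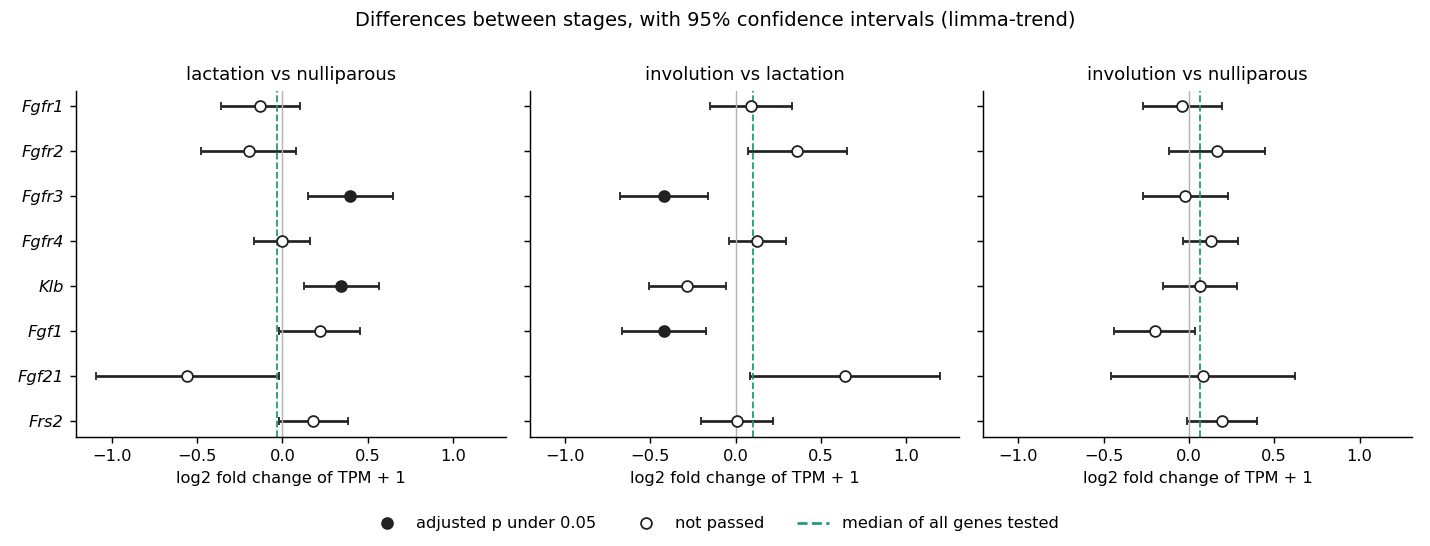
Log2 fold change of TPM + 1 (horizontal axis) with its 95% confidence interval for each of the 8 genes in the 3 comparisons, filled where the limma adjusted p was under 0.05, and the median of all genes tested as a dashed line. Klb and Fgfr3 are to the right in lactation, Fgfr3 and Fgf1 are to the left in involution against lactation, and the third panel has no filled point.

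Fgfr2 was the gene whose lactation difference differed most between the ranges of animal number. Among mice numbered 200 and above, Fgfr2 was 9.47, 10.15 and 10.26 TPM in lactation and 12.40, 13.67, 16.55 and 17.07 TPM in nulliparous mice, which did not overlap. The log2 difference there was -0.53 (SE 0.14, limma adjusted p = 0.0289). Among mice numbered under 200, the lactating values of 10.45, 12.05 and 14.20 TPM were mostly above the nulliparous values of 8.63, 10.46 and 12.58 TPM, a log2 difference of 0.20 (SE 0.15, limma adjusted p = 0.447). The difference between these differences was -0.73 (SE 0.21) with an unadjusted limma p of 0.00269 and an adjusted p of 0.190. By limma, 0 of the 8 genes passed this test after adjustment and 1, Fgfr2, had an unadjusted p under 0.05, against 0.185% of all genes that passed after adjustment and 12.2% at an unadjusted p under 0.05.

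Within mice numbered 200 and above, 2 of the 8 genes, Fgfr2 and Fgfr3, did not overlap between lactation and nulliparous mice, against 19.8% of all genes tested. For each the exact permutation p was 0.0571, the smallest that 3 mice against 4 can give. Fgfr2 alone did not overlap between involution and lactation, against 17.9% of all genes, with an exact permutation p of 0.0238. Over all mice, 0 of the 8 genes were free of overlap between nulliparous and lactating mice, where 3.27% of all genes were, and 0 of 8 between lactation and involution, where 11.5% were. A fit of the mice numbered 200 and above by themselves gave the same pair of calls in both comparisons with lactation. Fgfr2 was lower in lactation (log2 fold change -0.53, limma adjusted p = 0.0284) and higher again in involution (0.49, limma adjusted p = 0.0150), while Fgfr3 was higher in lactation (0.53, limma adjusted p = 0.0337) and lower in involution (-0.41, limma adjusted p = 0.0436). Klb in that fit was 0.26 (limma adjusted p = 0.408) and then -0.24 (limma adjusted p = 0.327).

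**Figure D3:**
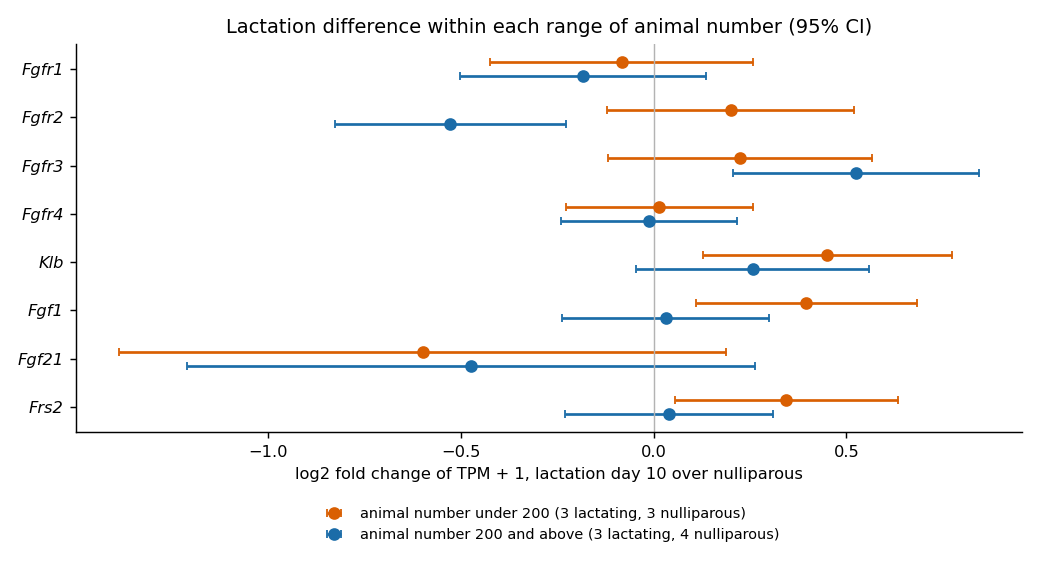
Log2 fold change of TPM + 1 from nulliparous to lactating mice (horizontal axis) with 95% confidence intervals for each of the 8 genes, in orange for animal numbers under 200 and in blue for 200 and above. Fgfr2 lies at 0.20 in the lower range and at -0.53 in the upper range, while Klb and Fgfr3 are above 0 and Fgf21 is below 0 in both.

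The 4 receptors together came to 42.1 ± 3.41 TPM (SD, n = 7) in the nulliparous group, 43.6 ± 5.19 (SD, n = 6) in lactation and 45.0 ± 3.60 (SD, n = 6) in involution. Over all mice the make-up shifted, but the step from nulliparous mice to lactation differed by range of animal number. Fgfr3 held 25.2% ± 4.53 of the sum in nulliparous mice, 32.5% ± 2.56 in lactation and 23.0% ± 3.05 in involution, while Fgfr2 held 30.9% ± 6.06, 25.5% ± 3.26 and 32.3% ± 3.07. In the upper range Fgfr3 went from 21.9% ± 0.565 in nulliparous mice to 33.2% ± 2.39 in lactation, and Fgfr2 from 34.7% ± 4.24 to 23.6% ± 2.03. In the lower range Fgfr3 went from 29.5% ± 3.54 to 31.7% ± 3.01, and Fgfr2 from 25.9% ± 4.07 to 27.4% ± 3.46. The lowest Fgfr3 share in lactation, 28.4%, was above the highest in involution, 27.2%. In TPM, 11.5% of all genes tested had no overlap between these 2 stages. The nulliparous Fgfr3 shares, 21.3% to 33.3%, overlapped with those in lactation. Fgfr3 exceeded Fgfr2 in 2 of 7 nulliparous mice, 5 of 6 lactating mice and 0 of 6 involution mice. The 2 nulliparous mice, NUL_1 and NUL_13, were both in the lower range. Fgfr4 was the most abundant receptor in 18 of 19 mice, at 41.8% ± 3.03, 40.3% ± 1.72 and 42.8% ± 2.72 of the sum, and Fgfr1 held 0.574% to 3.44%. The ratio of Klb to Fgfr4 TPM was 0.731 ± 0.150 in nulliparous mice, 0.929 ± 0.0662 in lactation and 0.693 ± 0.123 in involution. These shares and ratios repeat the values of the genes above and are given as descriptions with no test.

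**Figure D4:**
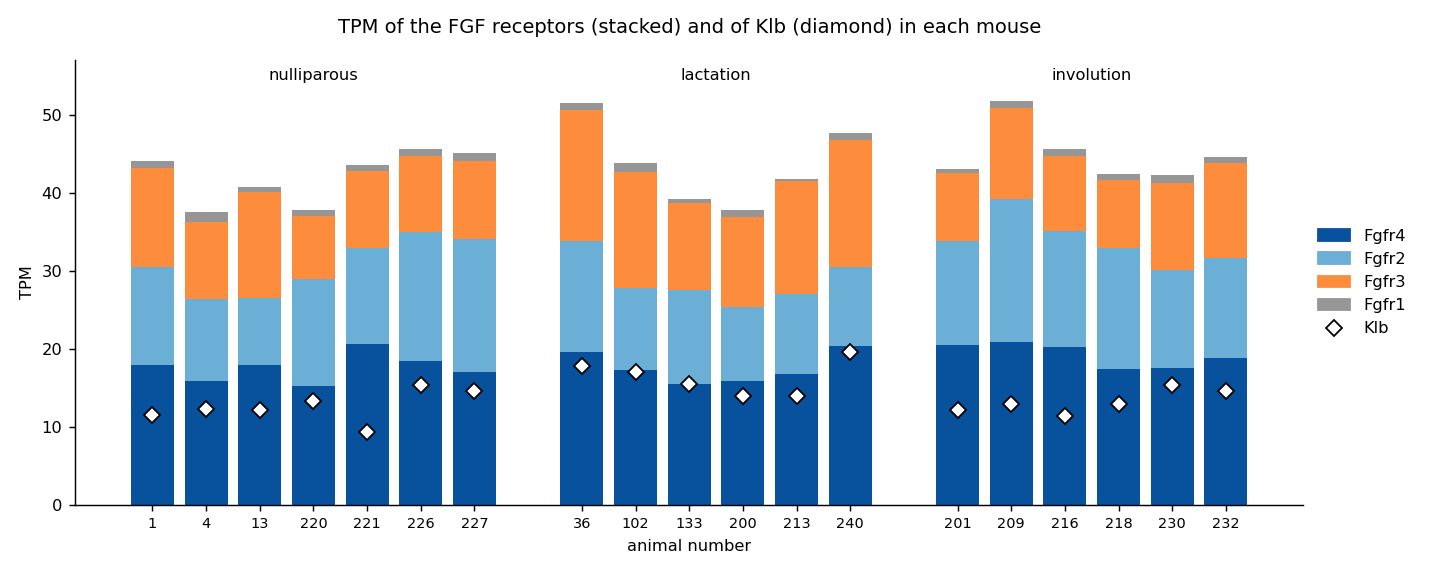
TPM of the 4 receptors stacked in each mouse (vertical axis from 0, animal numbers along the horizontal axis) and Klb TPM as a diamond, grouped by stage. The totals stay between 37.5 and 51.8 TPM, the orange Fgfr3 block is widest in lactation, and the Klb diamond is nearest to the top of the Fgfr4 block there.

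Other genes of the FGF family had little RNA in these livers. Of the 20 other FGF genes listed, 6 were at 0 in every mouse, among them Fgf15, the ileal hormone, and 13 never exceeded 0.1 TPM. The highest value of any of them was 0.61 TPM, for Fgf11. Of these, Fgf2 and Fgf11 averaged 0.1 TPM or more, and neither passed the limma test in any comparison, with 0 of 2 at an unadjusted p under 0.05 from nulliparous to lactation, 0 of 2 from lactation to involution and 1 of 2 between involution and nulliparous mice.

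The shares of all genes tested serve as background for this list and those below. In lactation 2.72% of all genes rose and 6.49% fell, and from lactation to involution 18.1% rose and 4.73% fell. In involution against nulliparous mice 3.44% rose and 0.912% fell. Among 15 tested co-receptors and other FGF-binding proteins, 0 rose and 2 fell in lactation, or 1 and 4 with range of animal number as a covariate. The 2 were Sdc4, a heparan sulfate syndecan (log2 fold change -0.73, limma adjusted p = 0.00674), and Cdh2, N-cadherin, which is known to bind FGFR1 (-0.46, limma adjusted p = 0.00230). From lactation to involution 6 rose and 0 fell, among them the syndecans Sdc3 (1.25, limma adjusted p = 1.38e-04) and Sdc4 (0.78, limma adjusted p = 0.00214) and Cdh2 (0.49, limma adjusted p = 6.44e-04), where 18.1% of all genes rose. Under median-ratio scaling 4 rose and 1 fell, and with range of animal number as a covariate 5 rose and 0 fell. Sdc3 also differed with animal number (0.68 higher at 200 and above, limma adjusted p = 8.37e-06). The median of the 15 was -0.08 in lactation, against -0.03 over all genes, and 0.14 in involution, against 0.099. Against nulliparous mice 2 of the 15 were higher in involution, Sdc3 (0.80, limma adjusted p = 0.0240) and Gpc4 (0.40, limma adjusted p = 0.0436), but 1 of the 15 under median-ratio scaling, with range as a covariate or among mice numbered 200 and above. Kl, the alpha-Klotho that serves FGF23, never exceeded 0.01 TPM. Fgfrl1, a decoy receptor without a kinase domain, was 17.18 to 28.35 TPM in nulliparous mice, 14.23 to 21.06 in lactation and 14.17 to 22.72 in involution.

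Of the 29 tested adaptors and members of the RAS-MAPK branch downstream of Frs2, 1 fell in lactation, Nras (log2 fold change -0.34, limma adjusted p = 0.0209), and 0 rose. In involution 6 of the 29 rose from lactation, where 18.1% of all genes rose, and 0 fell, among them Nras (0.37, limma adjusted p = 0.00728) and the ERK1 gene Mapk3 (0.38, limma adjusted p = 0.0130). With median-ratio scaling 1 of the 29 rose and 3 fell, where 1302 of all 16231 genes tested rose and 1354 fell. The median of the 29 from lactation to involution was then 0.023, against -0.0056 over all genes. With range of animal number as a covariate 3 rose, and among mice numbered 200 and above 2 rose, with 0 falling in each. The median of the 29 was 0.01 in lactation, against -0.03 over all genes, and 0.17 in involution, against 0.099.

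Spry4, a Sprouty inhibitor of receptor signaling and itself a target of ERK, was the feedback inhibitor that moved in both directions. It was 1.15 to 3.62 TPM in nulliparous mice, 0.45 to 2.17 in lactation and 1.98 to 3.21 in involution, with overlap at either step. It fell in lactation (log2 fold change -0.76, limma adjusted p = 0.0153) and rose in involution (0.82, limma adjusted p = 0.00516). It was the 1 of 13 tested inhibitors that fell in lactation, where 6.49% of all genes fell, and 0 rose. In involution it was 1 of 4 that rose, where 18.1% of all genes rose, and 0 fell. Lrig1 (0.33, limma adjusted p = 0.0286) and Rasa1 (0.29, limma adjusted p = 0.0463) came next. Under median-ratio scaling 1 rose in involution, with range of animal number as a covariate 1 rose, and among mice numbered 200 and above 4 rose, where 4 also fell in lactation. Of 10 tested MAPK target genes, 0 passed limma in lactation, with 1 at an unadjusted p under 0.05, and 1 rose there under median-ratio scaling or with the covariate. In involution Ccnd1, cyclin D1, fell (-1.22, limma adjusted p = 0.0103) and Etv5, an ETS factor, rose (0.33, limma adjusted p = 0.0207). Under median-ratio scaling 1 of the 10 fell and 0 rose from lactation to involution, so the rise of Etv5 did not pass there. The medians of the inhibitors were -0.13 and 0.28 in these comparisons, and those of the MAPK targets were 0.14 and -0.94. The last of these moved with animal number, to -0.13 with range as a covariate and -0.14 among mice numbered 200 and above, the range that holds every involution mouse. Between involution and nulliparous mice limma passed 0 of the 29 adaptors, 0 of the 13 inhibitors and 0 of the 10 MAPK targets, where 4.36% of all genes passed. At an unadjusted limma p under 0.05 there were 10, 1 and 0 of them, against 25.1% of all genes.

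Downstream of Klb and Fgfr4, Cyp8b1, the sterol 12-alpha-hydroxylase, rose in lactation (log2 fold change 0.53, limma adjusted p = 0.0109) as 1 of 11 tested genes of the bile acid axis. In involution 3 of the 11 fell and 0 rose, namely Cyp8b1 (-1.01, limma adjusted p = 2.40e-05), Cyp7a1, the rate-limiting enzyme (-1.56, limma adjusted p = 0.0278), and Slc10a1, the bile salt importer (-0.25, limma adjusted p = 0.0299). Cyp7a1 spread from 8.95 to 72.87 TPM in involution, where ID6_230 and ID6_232, at 72.87 and 57.19, lay within the lactating range of 27.39 to 115.49 TPM. Its mean was 25.9 TPM in nulliparous mice and 69.2 TPM in lactation, a difference that did not pass limma on TPM as deposited without a covariate. Cyp8b1 was also lower in involution than in nulliparous mice (-0.49, limma adjusted p = 0.0355), the 1 gene of the 11 that passed there. That call was lost with range of animal number as a covariate (0 of 11) and among mice numbered 200 and above (0 of 12). From lactation to involution 1 of the 11 rose and 1 fell with the covariate. In lactation 2 of the 11 rose under median-ratio scaling and 2 with the covariate. In each of these fits 1 of the 2 also reached a log2 fold change of 1 in size. Among mice numbered 200 and above 0 of 12 passed by limma, with 4 at an unadjusted p under 0.05. The medians of the 11 were 0.05 in lactation and -5.33e-05 in involution, the latter 0.11 with the covariate.

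Of 18 tested regulators and targets of FGF21, 2 fell in lactation, among them the fatty acid oxidation gene Cpt1a (log2 fold change -0.59, limma adjusted p = 0.00625), and 0 rose, although under median-ratio scaling 1 rose and 1 fell and with range of animal number as a covariate 2 rose and 3 fell. In involution 3 fell from lactation and 1 rose. Those with the smallest adjusted p were the PPARA targets Cyp4a14 (-5.19, limma adjusted p = 4.48e-04) and Acot1 (-3.42, limma adjusted p = 0.00595), and the liver X receptor gene Nr1h3 (0.34, limma adjusted p = 0.00345). Under median-ratio scaling 3 of the 18 fell and 0 rose from lactation to involution, so the rise of Nr1h3 did not pass there. Cyp4a14 was also lower than in nulliparous mice (-4.52, limma adjusted p = 0.00978), 1 of the 18. It spread from 47.55 to 1569.35 TPM among lactating mice. The medians of the 18 were -0.06 in lactation and -0.14 in involution, and the sign of the latter depended on animal number, at 0.087 with range as a covariate and 0.13 among mice numbered 200 and above.

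**Figure D5:**
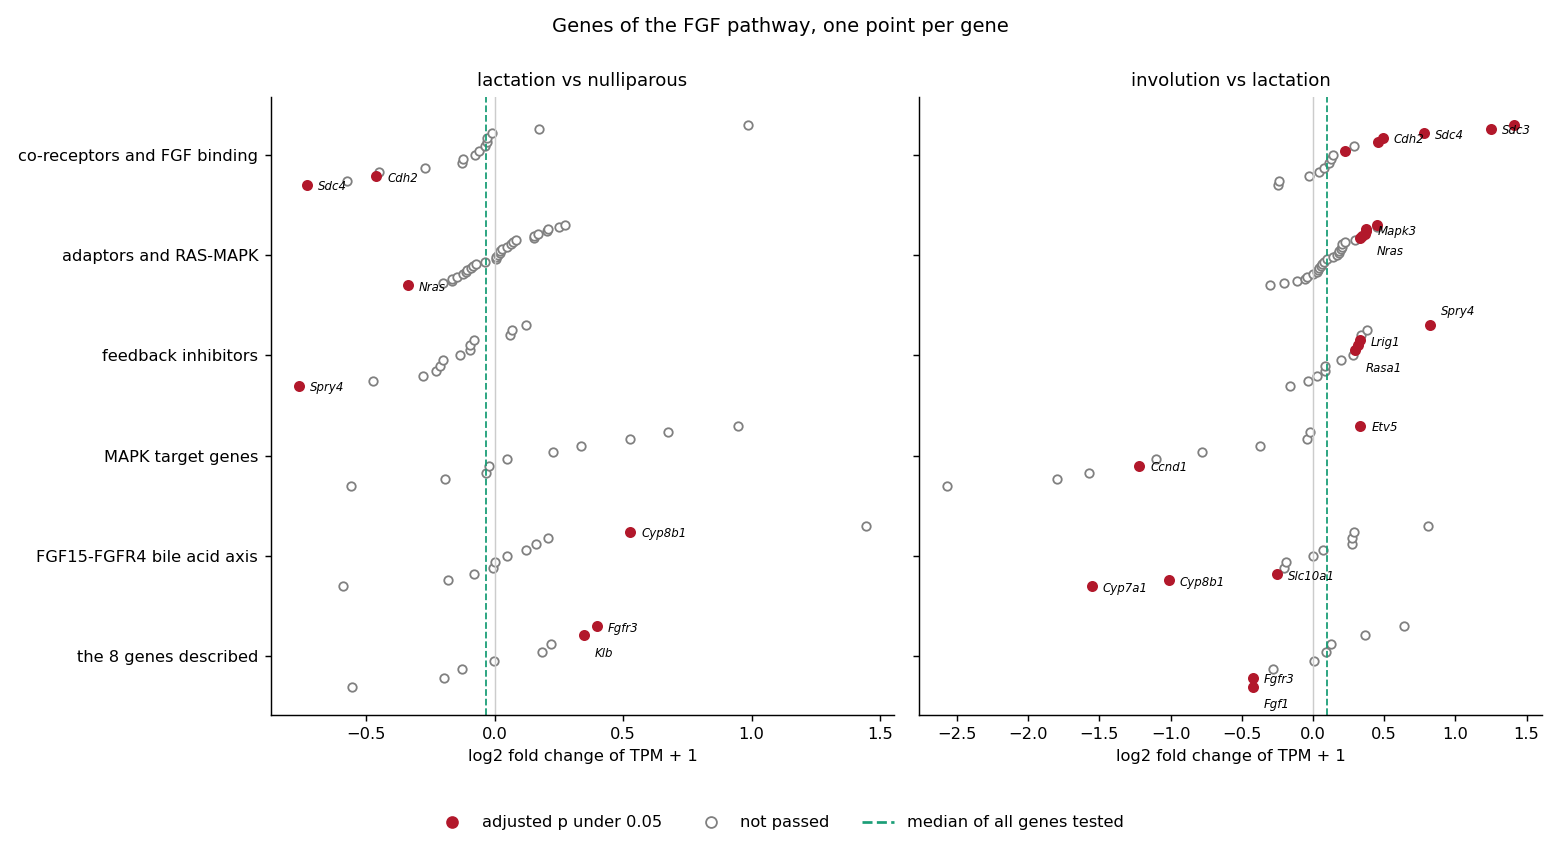
Log2 fold change of TPM + 1 (horizontal axes) for each tested gene of 5 pathway lists and for the 8 genes described, in red where the limma adjusted p was under 0.05, with up to 3 gene names per list and the median of all genes as a dashed line. Sdc4, Cdh2, Nras and Spry4 lie to the left in lactation and to the right in involution, opposite to Cyp8b1 and Fgfr3.

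Markers of other liver cells moved between the stages as well. In lactation, when Klb and Fgfr3 rose, 6 of 12 stellate cell and fibroblast markers, 5 of 10 endothelial markers and 7 of 10 Kupffer cell and leukocyte markers fell and 0 of these rose. Of 8 hepatocyte markers 1, Alb, rose and 0 fell, or 1 and 1 with range of animal number as a covariate. Of the hepatocyte markers Alb fell and Ttr rose from lactation to involution. Here 1 fell and 0 rose under median-ratio scaling, with the covariate, or among mice numbered 200 and above. Summed Kupffer cell and leukocyte markers were 165.65 to 316.85 TPM in nulliparous mice, 110.02 to 227.73 in lactation and 373.11 to 516.36 in involution. Endothelial sums were 170.24 to 214.33, 93.44 to 165.99 and 226.05 to 249.03 TPM, and stellate sums 143.05 to 187.22, 97.44 to 122.43 and 136.11 to 178.40 TPM. Hepatocyte sums were 62410 to 97096, 104143 to 155599 and 82244 to 114786 TPM. Alb made up most of the hepatocyte sums, with stage means of 55208, 100197 and 62534 TPM, so these sums mostly repeat that 1 gene. From lactation to involution, when Fgfr3 and Fgf1 fell, 10 of 10 Kupffer cell and leukocyte, 7 of 10 endothelial and 3 of 12 stellate markers rose and 0 of these fell. Red blood cell sums were 1144 to 2407 TPM in nulliparous mice, 1331 to 3336 in lactation and 196.51 to 847.15 in involution, where 5 of 5 fell from lactation. Against nulliparous mice, 8 of 10 Kupffer cell and leukocyte markers were higher and 5 of 5 red blood cell markers lower in involution. The 8 became 6 under median-ratio scaling or with range of animal number as a covariate, and 4 among mice numbered 200 and above. The 5 red blood cell markers stayed 5 under median-ratio scaling and became 4 in each of the other 2 fits. No marker of these lists was at 0 in all mice, and their part in the results for the 8 genes was not tested.

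Fewer markers passed in the other lists. In lactation 1 of 6 tested cholangiocyte markers, Spp1, 1 of 6 smooth muscle and mesothelial markers, Tagln, and 0 of 6 adipocyte markers fell, the last with 1 at an unadjusted p under 0.05 in limma. In involution Spp1 rose from lactation, and limma passed 0 of 6 smooth muscle and mesothelial and 0 of 6 adipocyte markers, with 2 and 1 at an unadjusted p under 0.05. Cholangiocyte sums were 39.01 to 55.41, 24.63 to 35.69 and 34.18 to 48.46 TPM over nulliparous, lactating and involution mice, smooth muscle and mesothelial sums 8.12 to 13.90, 3.94 to 7.72 and 5.94 to 9.54, and adipocyte sums 11.54 to 39.47, 14.10 to 23.13 and 13.35 to 45.78. Pancreatic acinar markers other than Cela1 summed to 48.19 TPM in LAC_133 and 15.37 in LAC_36, and to at most 8.35 in each other mouse. With all mice in, Cela1 was the 1 of 11 tested acinar markers that passed, lower in lactation and higher in involution. Without these 2 mice Fgfr3 rose in lactation by 0.41 (limma adjusted p = 0.0629) and Klb by 0.33 (limma adjusted p = 0.120), so neither passed. In involution Fgfr3 still fell (-0.44, limma adjusted p = 0.0351), Fgf1 did not pass (-0.41, limma adjusted p = 0.0593) and Fgfr2 rose (0.48, limma adjusted p = 0.0408).

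Genes whose TPM varied most like each of the 8 were looked for over the 19 mice, after the mean of each stage and range of animal number had been subtracted on the log2 scale, among the 11605 other genes that averaged 1 TPM or more. For Frs2 they were Ern1 (Pearson r = 0.957), Abl1 (0.923) and Phf2 (0.910). For Fgfr3 they were Impad1 (0.913), Uhmk1 (0.897) and Suz12 (0.896), and for Klb they included Fndc3a (0.853) and Ece1 (0.853). Fgf21 went most with Glt28d2 (0.885), Arl4a (0.855) and Rnf114 (0.836), and Fgf1 with Alkbh8 (0.779), Zbtb16 (0.768) and Ier5 (0.762). Fgfr4 went most with Klf16 (0.805), Mapk7 (0.792) and Hps6 (0.789), Fgfr2 with Ciao1 (0.811), Phf14 (0.765) and Abca8a (0.754), and Fgfr1, compared with 11606 genes, with Trp53i11 (0.878), Uox (0.824) and Slc7a2 (0.818). Between the 8 genes themselves r was highest for Fgfr3 with Fgfr4 (0.607) and for Fgfr3 with Frs2 (0.558), and lowest for Klb with Fgf21 (-0.405). All values of a mouse come from the same library, and these likenesses are descriptions with no p.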

How the data were processed

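Poly(A) RNA from 19 mouse livers was sequenced (paired-end). The authors aligned the reads to GRCm38, quantified genes with RSEM (version 1.3.1, per the submitters' processing notes) and deposited TPM per gene and mouse with 2 decimals. Each mouse totals 1000000 TPM, which leaves its depth unknown. The authors' DESeq2 test on counts was not repeated, since TPM are not counts. RSEM divides ambiguous reads among genes by a statistical estimate, so near-identical genes are uncertain.

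From the deposited TPM, log2(TPM + 1) of the 16230 genes averaging 0.1 TPM or more was fitted with limma-trend (limma 3.58.1, R 4.3.3), all 19 mice in the fit, with Benjamini-Hochberg adjustment over all genes. Differences between ranges of animal number came from a fit with 1 mean per stage and range. Mean TPM of single genes was also compared in exact two-sided permutation tests (scipy 1.17.1, Python 3.11.15), 24 over all mice, unadjusted. No mice had identical values. P-values set differences in means against the spread between these mice. The scripts were tested on simulated data.

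Named genes are the 8 genes, up to 3 past the test per pathway list and comparison, by smallest adjusted p, and the 3 genes nearest to each of the 8. Fgf15, Fgf11, Fgf2, Kl, Fgfrl1 and the markers that passed were named after their values were seen. The members and lists were chosen with earlier results of these data known. Alternatives were a pseudocount of 0.1 or 0.5, no filter or one at 1 TPM, median-ratio scaling, fits of only the 2 stages compared or of mice from number 200 up, the range of animal number as a covariate, and leaving out each mouse. Leaving out mice LAC_36 and LAC_133 together was added after the data were seen. Positions are from GENCODE M21 on GRCm38 and upstream sequences from RefSeq on GRCm38.p6. Upstream windows were not analysed here for Fgfr1 and Fgf1. A few genes that met the rule for named genes are not reported here by name, but remain in the counts.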

Additional observations from a re-analysis of the deposited data

Results flagged for a closer look

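Among the 24 groups formed by 8 genes and 3 stages, 1 held a value far from the others of its group. Frs2 in lactating mouse LAC_102 was 5.34 TPM, and the next highest lactating mouse was at 4.14 TPM, a gap of 0.656 of the group's range against a critical value of 0.625 for 6 mice. Chance flags about 1 in 20 such groups. The same mouse held the highest Fgf1 value, 56.56 TPM.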

How the results depend on the processing

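No paired analysis was possible because the stages share no replicate numbers. With pseudocounts of 0.1 or 0.5 or a filter at 1 TPM, the same numbers of the 8 genes passed in each comparison. From nulliparous to lactation, where 2 passed, 0 passed with no filter, with only the 2 stages fitted and without mice LAC_36 and LAC_133, and 0 to 2 passed when each mouse was left out. With no filter more genes are tested. From lactation to involution, 2 passed, 0 with range of animal number as a covariate, and 3 with median-ratio scaling or only the 2 stages fitted, where Klb and Fgfr2, respectively, were added. Leaving out each mouse gave 2 to 4. Between involution and nulliparous mice 0 passed throughout, by limma. Of the 8 genes, 1 differed between ranges of animal number, 0 with no filter and 0 to 1 when each mouse was left out, with 0 in 15 of 19 fits. The cause was not tested for these changes. Of the single differences (8 genes in 3 comparisons), 185 kept direction and side of the threshold under the alternatives other than leaving out 1 mouse, 11 lost and 5 gained a call and 12 changed sign. When each mouse was left out, 403 stayed, 21 lost and 7 gained a call and 25 changed sign.

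Each log2 difference that changed sign belonged to a comparison in which that gene had not passed. With median-ratio scaling Fgfr4 was 0.051 in lactation and -0.027 from lactation to involution, Frs2 was -0.12 from lactation to involution, and Klb was -0.037 between involution and nulliparous mice. With range as a covariate Fgfr4 was 4.00e-04 in lactation, and between involution and nulliparous mice Fgfr1 was 0.012, Fgfr3 0.052 and Fgf21 -0.063. Among mice numbered 200 and above Fgfr2 was -0.035, Fgfr3 0.11 and Fgf21 -0.038 between involution and nulliparous mice. Without mice LAC_36 and LAC_133, Frs2 was -0.011 from lactation to involution. When each mouse was left out, Fgfr4 was -0.043 to 0.035 in lactation. From lactation to involution Fgfr1 was -0.0068 to 0.15 and Frs2 -0.035 to 0.080. Between involution and nulliparous mice Fgfr1 was -0.072 to 0.011, Fgfr3 -0.075 to 0.036, Klb -9.21e-04 to 0.11 and Fgf21 -0.090 to 0.25. Read depth, which would limit low genes such as Fgfr1, is unknown from TPM.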
